A study of Mus musculus with 5 samples.

Results

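Broad distal domains are long stretches of H3K27ac that lie away from promoters. In large intestinal Treg cells of 2-week-old mice, 2183 of the 124158 H3K27ac peaks met the rule, which selected peaks on their width and position as called in these same libraries and asked for a width of at least 3000 bp and no transcription start site (TSS) of a protein-coding transcript of GENCODE M21 basic within 3000 bp. The peaks had been measured by CUT&Tag, in which an antibody brings a transposase to the histone mark so that the DNA beside it can be sequenced. Ctrl mice were Foxp3CreSetd2flox/+ and KO mice were Foxp3CreSetd2flox/flox, all on the C57BL/6 background with females and males pooled. Cre, fused to YFP, was driven by Foxp3, so that Setd2 was targeted in cells that had turned on Foxp3, and the Ctrl mice too carried 1 floxed allele in those cells. Each of the 2 Ctrl and 2 KO libraries came from 60000 sorted CD3+CD4+YFP+ cells pooled over several littermate mice. The comparison asked how loss of Setd2, the methyltransferase for H3K36me3 in transcribed genes, changed H3K27ac.

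Acetylation of lysine 27 of histone H3 marks active promoters and enhancers, and enhancers that stand close together on the genome can merge into long acetylated domains. Such domains often lie at genes that give a cell its identity, which in T cells include transcription factors, antigen receptor genes and surface receptors. Treg cells are the CD4 T cells that restrain immune responses, and Foxp3 is their defining transcription factor.

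Total counts in peaks were 2395002 and 3630447 for Ctrl 1 and Ctrl 2, and 3007444 and 4712473 for KO 1 and KO 2. The first principal component of the tested peaks, with 43.2% of the variance, separated Ctrl 1 and KO 1 from Ctrl 2 and KO 2, so libraries with the same number were closer than libraries of the same genotype. H3K27ac over Setd2 itself measured 51.6 and 84.2 CPM in Ctrl and 45.8 and 65.4 CPM in KO, and these counts do not check the deletion of floxed exons. CPM are counts scaled by the TMM-corrected library size. Peaks at the promoters and bodies of 7 Treg marker genes summed to between 2450 and 3410 CPM per library, all 7 genes included. The sums for markers of other cells were 29.7 to 49.9 CPM for B cells (Ms4a1 at 0), 29.2 to 52.9 CPM for myeloid cells (Lyz2, Itgam and Adgre1 at 0), 43.4 to 69.3 CPM for epithelial cells (Cdx2 and Krt20 at 0) and 6.25 to 12.2 CPM for CD8 T and NK cells (Cd8a, Ncr1 and Eomes at 0). Stromal and endothelial markers summed to 563 to 1050 CPM with Col3a1 at 0, most of it from Pecam1, an adhesion receptor that T cells also carry.

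Broad distal domains held fewer CpGs than broad promoter domains, and most of the short motifs searched had a match in most of them. Sequence is shown from the domains whose values follow, namely the called domain between Xcr1 and Ccr1, the widest domain (the Tcra locus), a domain of Hjurp that was lower in KO, and the strongest domain of Ets1, Bcl11b, Ikzf1, Ikzf2 and Ctla4. Each is the window of 100 bases that held the most different motifs out of 9 searched outside repeats, on the plus strand of mm10, and capitals mark the matches on either strand. The motifs were AP-1 (TGANTCA), ETS (AGGAAG), RUNX (TGTGGT), forkhead (TGTTTAC), the GATA factors (AGATAA), STAT (TTCNNNGAA), TCF/LEF (CTTTGAA), ROR (AGGTCA) and an E-box (CAGCTG). They lie at chr9:123928276-123928375 (Xcr1-Ccr1), chr14:54212109-54212208 (Tcra), chr1:88264182-88264281 (Hjurp), chr9:32732828-32732927 (Ets1), chr12:107933610-107933709 (Bcl11b), chr11:11731855-11731954 (Ikzf1), chr1:69542739-69542838 (Ikzf2) and chr1:60915682-60915781 (Ctla4), in this order:
Xcr1-Ccr1: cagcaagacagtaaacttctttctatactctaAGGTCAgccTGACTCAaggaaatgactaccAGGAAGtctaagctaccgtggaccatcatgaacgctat
Tcra: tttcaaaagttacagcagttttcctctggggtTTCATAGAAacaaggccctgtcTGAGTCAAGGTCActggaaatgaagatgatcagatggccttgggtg
Hjurp: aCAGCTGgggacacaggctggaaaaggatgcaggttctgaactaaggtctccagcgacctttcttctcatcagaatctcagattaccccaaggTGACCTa
Ets1: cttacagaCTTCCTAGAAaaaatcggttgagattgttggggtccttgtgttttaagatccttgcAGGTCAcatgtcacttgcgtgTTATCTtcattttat
Bcl11b: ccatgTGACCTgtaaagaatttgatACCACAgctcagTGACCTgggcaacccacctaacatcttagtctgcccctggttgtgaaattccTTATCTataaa
Ikzf1: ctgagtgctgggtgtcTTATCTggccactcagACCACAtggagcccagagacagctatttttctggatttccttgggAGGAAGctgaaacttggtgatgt
Ikzf2: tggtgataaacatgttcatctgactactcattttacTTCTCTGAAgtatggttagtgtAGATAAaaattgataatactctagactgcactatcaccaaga
Ctla4: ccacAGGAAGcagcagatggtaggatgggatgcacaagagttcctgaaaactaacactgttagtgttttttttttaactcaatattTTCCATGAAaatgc

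The Ets1 window held 4 different motifs, and 9.62% of all broad distal domains had a window with at least that many. The windows of Xcr1-Ccr1, Tcra, Bcl11b and Ikzf1 held 3, a number that 57.1% of the domains reached. Those of Hjurp, Ikzf2 and Ctla4 held 2, a number that 98.2% reached. A match is a run of letters and not a measured binding site.

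Over their whole length, broad distal domains held 1.78 ETS matches per kb, against 1.66 in broad promoter domains, the 1892 peaks of at least 3000 bp within 3000 bp of a TSS, and 1.66 in narrow distal peaks, those under 3000 bp away from TSSs. RUNX matches stood at 0.992 per kb, against 0.810 and 1.03, and AP-1 matches at 0.357 per kb, against 0.289 and 0.353. An ETS match was present in 99.8% of the broad distal and 99.0% of the broad promoter domains, whose widths were alike (medians 4073 and 4148 bp). A RUNX match was present in 97.4% and 93.3%, and an AP-1 match in 78.6% and 69.7%. Matches to ROR (95.3% and 91.4%), the E-box (90.7% and 88.1%) and GATA (87.1% and 82.45%) were common in both classes too. The widest gap was for the SP/KLF motif (GGGCGG), with 0.232 matches per kb in broad distal domains, 0.906 in broad promoter domains and 0.184 in narrow distal peaks. The share of domains with an SP/KLF match was 54.5% for the distal and 88.2% for the promoter class.
The CpG content followed the same order. The median ratio of observed to expected CpG was 0.209 in broad distal domains, 0.398 in broad promoter domains and 0.174 in narrow distal peaks. The median GC content was 47.5% in broad distal domains, 51.1% in broad promoter domains and 47.1% in narrow distal peaks. In base composition the broad distal domains were thus close to narrow distal peaks.

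Broad distal domains made up 1.76% of all peaks but 10.4% of the bases in peaks, 10.6 Mb in all. Of the 2183 domains, 961 lay within an intron, 625 overlapped an exon of a protein-coding gene and 597 lay between genes. Exons took 3.81% of their bases. The distance to the nearest protein-coding TSS ran from 3003 bp, the edge of the rule, to 746273 bp, with a median of 22286 bp. By distance, 518 domains lay within 10 kb of a TSS, 1159 between 10 and 50 kb, 296 between 50 and 100 kb, and 210 farther away. Chromosome 11 had the highest share of its peaks in the class (2.50%) among the chromosomes with domains and chromosome X the lowest (0.710%).

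Width and signal chose these domains in part, since wider peaks collect more counts, so their levels are a description. The mean signal per domain ran from 14.2 to 1046 CPM with a median of 59.7 CPM, against 5.77 CPM over all tested peaks. Per kb of width the median was 14.1 CPM, between 17.0 CPM for broad promoter domains and 8.17 CPM for narrow distal peaks. Domains of 10 kb or more, 85 in number, carried 18.2 CPM per kb in the median, those of 5 to 10 kb 15.8 and those under 5 kb 13.2, so the wider domains were also denser. The peaks on either side of the limits were as follows. The 147 domains within 100 bp above the width limit had a median of 12.2 CPM per kb, and the 174 distal peaks within 100 bp below it had 12.3. The 43 domains whose TSS lay within 500 bp beyond the distance limit had 14.9 CPM per kb, and the 35 broad peaks within 500 bp inside it, which the rule left out, had 10.9.

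**Figure D1:**
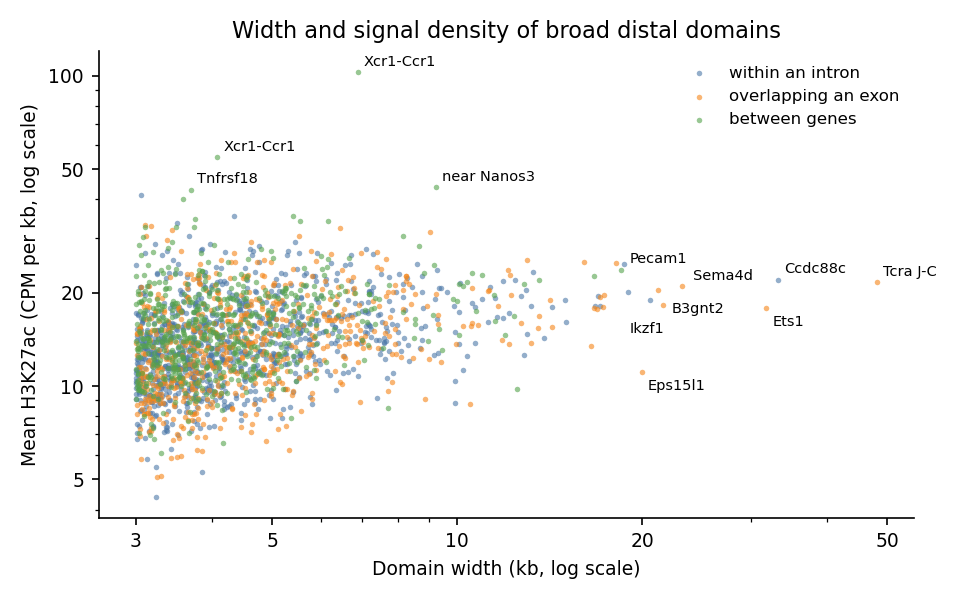
Width of each of the 2183 broad distal domains (x axis, kb, log scale) against its mean H3K27ac signal per kb over the 4 libraries (y axis, CPM per kb, log scale), coloured by position relative to protein-coding genes. Most domains lie between 3 and 10 kb, the Tcra J-C domain is the widest at 48.2 kb, and the domain between Xcr1 and Ccr1 stands above all others at 103 CPM per kb.

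The widest domain was the J and C part of the T cell receptor alpha locus, which encodes the antigen receptor chain of these cells. It spanned chr14:54188904-54237109, 48206 bp, over 26 Traj segments, 3 Traj pseudogenes and Trac, and reached the last part of Dad1, a gene of the oligosaccharyltransferase complex. It counts as distal because receptor segments are not annotated as protein-coding. It measured 755 and 967 CPM in Ctrl and 1027 and 1433 CPM in KO, so the KO libraries lay above the Ctrl libraries (log2 fold change 0.51, SE 0.22, adjusted p = 0.998 in edgeR). With an offset that removes the trend of fold change on abundance (loess) the log2 fold change was 0.07, and leaving out KO 2 or KO 1 gave 0.25 or 0.72. The T cell receptor beta locus had a domain of 18.5 kb at chr6:41542593-41561073, over 6 Trbj segments, 1 Trbj pseudogene, Trbc2 and Trbv31. Its levels overlapped between genotypes, with 389 and 445 CPM in Ctrl and 396 and 518 CPM in KO (log2 fold change 0.13, SE 0.24).
The next widest domains lay in Ccdc88c (33.2 kb), Ets1 (31.8 kb), Sema4d (23.2 kb), B3gnt2 (21.6 kb), Pecam1 (21.2 kb), Ikzf1 (20.6 kb) and Eps15l1 (19952 bp, 27.3 kb from the TSS of Klf2). Ets1 and Ikzf1 are lymphoid transcription factors, Sema4d is a semaphorin of lymphocytes and Klf2 is a transcription factor of T cell trafficking. Their log2 fold changes ran from 0.23 in B3gnt2 to 0.60 in Ets1. In Ets1 the KO libraries (565 and 806 CPM) lay above both Ctrl libraries (395 and 512 CPM), with an adjusted p of 0.998 in edgeR. The loess offset lowered the value to 0.21 in Ets1, 0.08 in Ikzf1, 0.04 in Sema4d and 0.001 in Pecam1. With that offset it was below 0 in Ccdc88c (−0.054), B3gnt2 (−0.121) and Eps15l1 (−0.049). Leaving out a library gave 0.31 to 0.81 in Ets1 and 0.10 to 0.69 in Sema4d.

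By signal per kb the domain between Xcr1 and Ccr1 came first (103 CPM per kb), followed by its close neighbour (54.6), and both are described with the KO comparison. The next were a domain 20.5 kb from Nanos3 on chromosome 8 (43.8), which holds the lincRNA Gm26887, and a domain 4.02 kb from Tnfrsf18 (43.0), which encodes the Treg receptor GITR. Panx1, Gvin1, Fgd2 and Pde4d followed, with 41.3, 40.1, 35.4 and 35.2 CPM per kb. The Tnfrsf18 domain measured 128 and 145 CPM in Ctrl and 183 and 179 CPM in KO (log2 fold change 0.41, SE 0.26). The Pde4d domain was level between genotypes, with 159 and 147 CPM in Ctrl and 159 and 146 CPM in KO (log2 fold change −0.003, SE 0.26).

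Broad distal domains took a larger share of the counts in both KO libraries than in either Ctrl library. Their widths were called on these same libraries, of which KO 2 was the deepest, so the set was not chosen independently of the comparison. How far that choice adds to the difference was not tested. The share was 13.5% and 14.5% in Ctrl and 14.7% and 17.1% in KO, a difference of 1.90 percentage points between the means (exact two-sided permutation test, p = 0.333, n = 2 each, the smallest p that 2 against 2 libraries can give). In bulk cells, a change in the number of cells that carry a domain and a change in signal per cell cannot be told apart. For broad promoter domains the genotypes overlapped, with 14.6% and 15.8% in Ctrl and 15.3% and 18.4% in KO (p = 0.667 in the same exact test, n = 2 each). Narrow distal peaks took 48.0% and 48.2% of the counts in Ctrl and 47.2% and 42.1% in KO (p = 0.333 in the same exact test, n = 2 each). The KO 2 library had the highest share in both broad classes and the lowest in narrow distal peaks. It also had the most counts and a TMM factor of 0.944, against 1.027 and 1.028 in Ctrl and 1.003 in KO 1. Without KO 2 the difference for broad distal domains was 0.727 percentage points. Whether the difference comes from the libraries or from the cells was not tested.

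**Figure D2:**
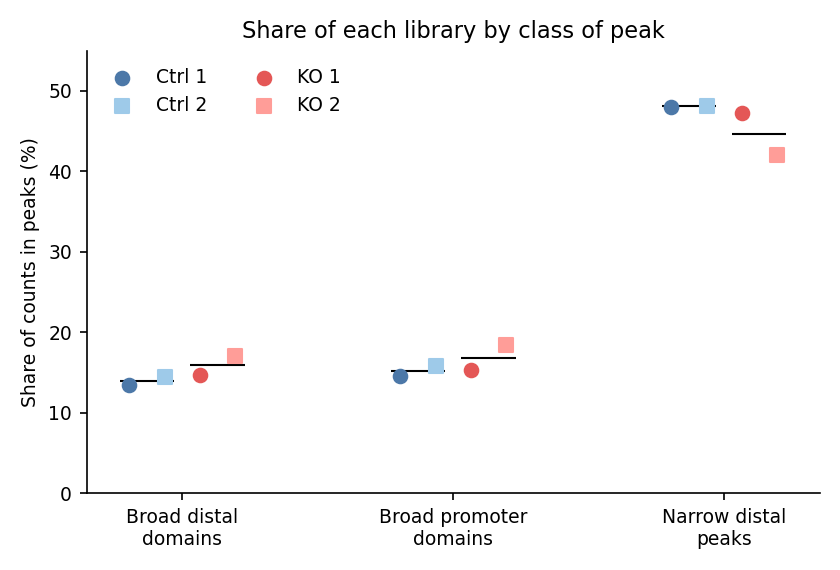
Share of each library's counts (y axis, percent) that fell in broad distal domains, broad promoter domains and narrow distal peaks. Circles are replicate 1, squares are replicate 2 and black lines are the mean of each genotype. The broad distal share was 13.5% and 14.5% in Ctrl and 14.7% and 17.1% in KO.

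Most broad distal domains had a log2 fold change above 0, by a small amount. As with the shares, the domains had been chosen on widths called in these same libraries, and the effect of that choice was not tested. All 2183 passed the count filter, and 1770 of them (81.1%) were above 0 against 49.2% of all 74550 tested peaks. The median log2 fold change was 0.22 over the domains, −0.01 over all tested peaks, 0.17 over broad promoter domains and −0.07 over narrow distal peaks. Within libraries of the same number the median was 0.15 for KO 1 over Ctrl 1 and 0.27 for KO 2 over Ctrl 2. At unadjusted p below 0.05 in edgeR, 103 domains were higher in KO (4.72%, against 1.45% of all tested peaks) and 16 were lower (0.733%, against 2.79%). Each KO library exceeded each Ctrl library at 711 domains (32.6%, against 16.9% of all tested peaks) and below them at 94 (4.31%, against 16.4%).
After adjustment over all tested peaks, 1 domain was higher in KO in edgeR, against 0.00134% of all tested peaks, and 0 were lower, against 0%. DESeq2 called 0 domains in either direction, with 55 higher and 9 lower at unadjusted p below 0.05.

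The size of this shift moved with abundance and with the libraries used. Of the domains, 2033 (93.1%) stood in the top decile of tested peaks by abundance, where other peaks also had a positive median (0.14, against 0.23 for the domains of that decile) and 70.8% of the other peaks, against 83.6% of the domains, were above 0. In the next decile down, the order was the other way round, with a median of −0.02 for 149 domains and 0.09 for the other peaks. With a loess offset that removes the trend on abundance, the median was 0.04 over the domains and −0.007 over all tested peaks. Under it 19 domains were higher and 33 lower at unadjusted p below 0.05, and the share of all tested peaks under this offset is not given here. Without KO replicate 2 the median was 0.09 over the domains and −0.04 over all tested peaks. Without Ctrl replicate 1 these medians were 0.18 and 0.04. Whether the shift of the domains is other than that of abundant peaks was not tested.

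**Figure D3:**
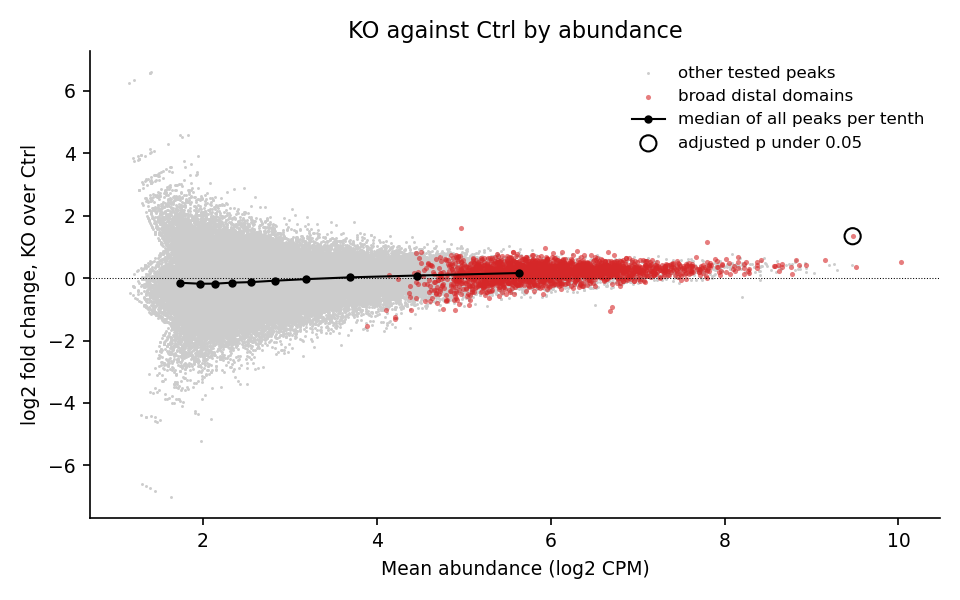
Mean abundance (x axis, log2 CPM) against the edgeR log2 fold change of KO over Ctrl (y axis) for all 74550 tested peaks in grey and the 2183 broad distal domains in red. The black line joins the medians of all peaks in each decile of abundance, which reach 0.16 in the top decile, and the ring marks the domain called at an adjusted p under 0.05.

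With TMM scaling the median differed more by width than by position relative to genes. By position it was 0.22 for 961 intronic domains, 0.26 for 625 domains overlapping an exon and 0.19 for 597 domains between genes. By width it was 0.19 for domains under 5 kb, 0.25 for 5 to 10 kb and 0.35 for 10 kb or more. All 85 domains of 10 kb or more were above 0 with TMM scaling. Once loess had removed the abundance trend, the values by position were 0.03, 0.07 and 0.007 in the same order. Those by width were then 0.03, 0.04 and 0.06, so width no longer gave the larger differences. Among the 16 domains that were lower at unadjusted p below 0.05, 11 overlapped an exon, 5 lay in an intron and 0 lay between genes, while the 103 higher ones split into 46, 40 and 17. Of the lower domains, 14 had a mean under 40 CPM, a level that 451 of all domains fell under.

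The called domain lay at chr9:123927502-123934392, 6891 bp between the chemokine receptor genes Xcr1 and Ccr1, downstream of Ccr1 and 34.3 kb from its TSS. Its signal was 509 and 294 CPM in Ctrl and 908 and 1128 CPM in KO. The Ctrl libraries held 1126 and 987 of its counts, and the KO libraries 2438 and 4706. That is 402 ± 153 CPM in Ctrl against 1018 ± 155 CPM in KO (SD, n = 2 each), and the groups did not overlap. It rose by 1.34 on the log2 scale (SE 0.23, adjusted p = 0.000274 in edgeR). The call did not hold in DESeq2 (adjusted p = 0.122) or without any of the 4 libraries in turn (edgeR adjusted p of 0.0856 to 0.963), while the fold change lay between 0.999 and 1.79 on the log2 scale. The edgeR prior degrees of freedom were infinite, so this test used the trended spread of peaks of like abundance and not the scatter of the domain itself.

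The neighbouring domain at chr9:123934772-123938841, 4070 bp, was higher too. It had 159 and 117 CPM in Ctrl and 281 and 332 CPM in KO (log2 fold change 1.15, SE 0.26, adjusted p = 0.157 by edgeR). The nearest peaks on each side were level or lower. On the Xcr1 side, the small peak next to the called domain, chr9:123926032-123926508, was lower in KO, with 14.0 and 14.6 CPM in Ctrl and 1.49 and 3.35 CPM in KO (log2 fold change −2.48, SE 0.61, adjusted p = 0.626 in edgeR). The next peak outward, chr9:123923178-123925825, measured 98.6 and 88.7 CPM in Ctrl and 106 and 97.0 CPM in KO (log2 fold change 0.12, SE 0.28). On the Ccr1 side, the peak at chr9:123939941-123942634 measured 40.7 and 35.7 CPM in Ctrl and 42.5 and 37.4 CPM in KO (log2 fold change 0.06, SE 0.32). The promoter peak of Ccr1 was low, at 1.81 and 2.98 CPM in Ctrl and 6.33 and 2.16 CPM in KO. Another broad distal domain of this stretch, 5.83 kb from Fyco1 at chr9:123841414-123845832, measured 40.3 and 38.7 CPM in Ctrl and 46.2 and 54.6 CPM in KO (log2 fold change 0.36, SE 0.32). Narrow peaks near it were higher in KO as well, chr9:123839761-123840830 with 5.43 and 4.76 CPM in Ctrl and 15.3 and 17.7 CPM in KO (log2 fold change 1.70, SE 0.53) and chr9:123835097-123837218 with 24.4 and 25.9 CPM in Ctrl and 45.5 and 41.9 CPM in KO (log2 fold change 0.79, SE 0.34). Within 100 kb of the called domain, 14 of 22 tested peaks had a log2 fold change above 0, and 5 of the 22 had an unadjusted p below 0.05 in edgeR. These counts include the called domain and its neighbour, which were picked by their p, and the small lower peak. Of all tested peaks, 49.2% were above 0, and 1.45% were higher and 2.79% lower at unadjusted p below 0.05.

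Inpp5d also had a domain among those higher in KO without overlap with the smallest p. Inpp5d (ENSMUSG00000026288.14) encodes SHIP1, a phosphatase that restrains PI3K signalling, and its domain at chr1:87634841-87638739 measured 42.1 and 40.5 CPM in Ctrl and 79.0 and 80.5 CPM in KO (log2 fold change 0.95, SE 0.30, adjusted p = 0.998 in edgeR). The libraries of each genotype were close together, while the lack of overlap between genotypes was a condition of its choice.

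The domains with the smallest p among those lower in KO without overlap lay in Hjurp, Ppp2r2d and Chaf1a, and none passed the adjustment. Hjurp (ENSMUSG00000044783.16), the chaperone that loads the centromere histone CENP-A, had a pair of them in its body, 10.9 and 7.33 kb from its TSS. The first, at chr1:88263477-88266582, measured 163 and 113 CPM in Ctrl and 80.5 and 53.4 CPM in KO (log2 fold change −1.05, SE 0.28, adjusted p = 0.788 in edgeR). The second, at chr1:88267006-88270181, measured 152 and 120 CPM in Ctrl and 88.3 and 56.1 CPM in KO (log2 fold change −0.92, SE 0.28, adjusted p = 0.998 in edgeR). The peaks on both sides were lower in KO too, the promoter peak at chr1:88272637-88279610 with 437 and 275 CPM in Ctrl and 271 and 193 CPM in KO (log2 fold change −0.62, SE 0.24), and the peak at chr1:88259801-88262458 with 130 and 104 CPM in Ctrl and 72.7 and 55.4 CPM in KO (log2 fold change −0.87, SE 0.28). Within 100 kb of the first domain, 9 of 12 tested peaks had a log2 fold change below 0, and 6 of the 12 had an unadjusted p under 0.05 in edgeR. Both Hjurp domains, which were picked by their p, are among them. Of all tested peaks, 49.2% were above 0, and 2.79% were lower and 1.45% higher at unadjusted p below 0.05.
Ppp2r2d, a regulatory subunit of protein phosphatase PP2A, had an intronic domain at chr7:138853885-138857116 with 23.1 and 19.6 CPM in Ctrl and 4.84 and 9.34 CPM in KO (log2 fold change −1.55, SE 0.47). Chaf1a, a subunit of the CAF-1 histone chaperone of replication, had a domain at chr17:56059877-56062931 with 21.7 and 29.2 CPM in Ctrl and 7.45 and 12.9 CPM in KO (log2 fold change −1.30, SE 0.42). The adjusted edgeR p was 0.998 for both. These were weak signals, with 13 to 98 counts per library.

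**Figure D4:**
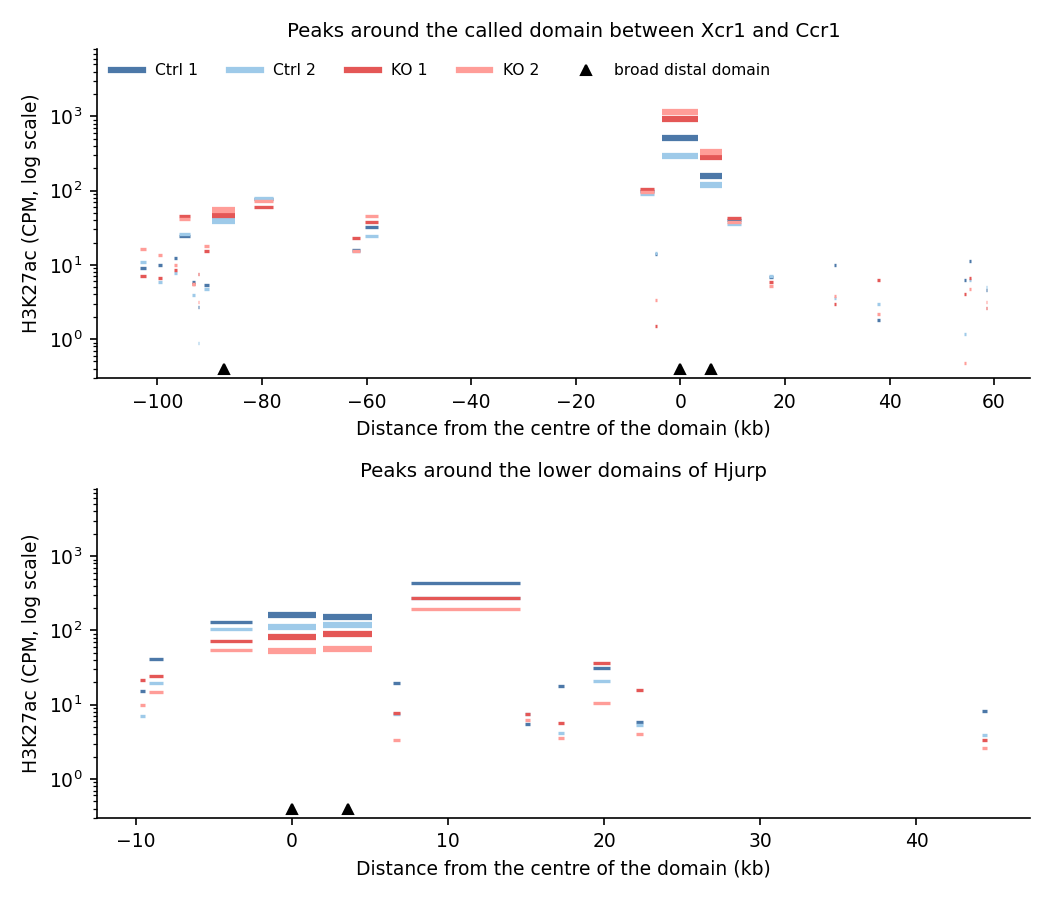
H3K27ac (y axis, CPM, log scale) of each tested peak in each library around the called domain between Xcr1 and Ccr1 (top) and around the domains of Hjurp (bottom), placed by distance from the centre of the domain (x axis, kb). Bar length is peak width, thick bars with a triangle are broad distal domains. At the top the KO libraries (908 and 1128 CPM) lie above the Ctrl libraries (509 and 294 CPM) in the called domain and its neighbour, and at the bottom both domains and the peaks on each side are lower in KO.

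By gene, the 2183 domains were assigned to 1264 genes, by overlap or, between genes, to the nearest TSS. Of these genes, 799 had 1 domain, 360 had 2 or 3, 89 had 4 to 6 and 16 had 7 or more. Prkch, which encodes a protein kinase C of T cells, had the most with 15, followed by Ikzf2 (12), Zmiz1 (11), Nfatc1 (10) and Bcl11b (9). Gene lists of T cell biology were used to order the domains, and each list is described by its counts and median. Over all tested peaks 49.2% were above 0, and 1.45% were higher and 2.79% lower at unadjusted p below 0.05. Over all broad distal domains these shares were 81.1%, 4.72% and 0.733%. With the loess offset on abundance the median was 0.04 over all broad distal domains, and the median of each list under that offset is given in parentheses.

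T cell and Treg transcription factors held 75 domains at 22 of 36 genes. Of these domains 72 (96.0%) had a log2 fold change above 0, 8 (10.7%) were higher and 0 lower at unadjusted p below 0.05, and the median was 0.34 (0.12), beside 0.22 over all broad distal domains and −0.01 over all tested peaks. The genes with the most were Ikzf2, Bcl11b, Ets1, Ikzf3, Ikzf1 and Rora. Ikzf2 encodes Helios, a marker of thymic Treg cells, and its 12 domains summed to 598 and 676 CPM in Ctrl and 722 and 861 CPM in KO, with single log2 fold changes from −0.08 to 0.64. Bcl11b, a factor of T cell commitment, had 9 domains with 835 and 1058 CPM in Ctrl and 1048 and 1359 CPM in KO, so its KO 1 library stood below Ctrl 2. Ets1 had 7 domains with 994 and 1221 CPM in Ctrl and 1389 and 1819 CPM in KO.
In Ets1 all 7 domains had both KO libraries above both Ctrl libraries, and 4 of them an unadjusted p under 0.05. Over all broad distal domains, 32.6% had both KO libraries above and 4.72% were higher at that p in edgeR. Over all tested peaks these shares were 16.9% and 1.45%. The 7 domains of Ets1 lay in 2 places. The first 3 were within the gene, 11.6 to 50.7 kb from its TSS. The other 4 lay 209 to 241 kb away between genes, and the strongest of these, chr9:32905877-32917820, measured 127 and 156 CPM in Ctrl and 200 and 217 CPM in KO (log2 fold change 0.56, SE 0.26). Ikzf3, which encodes Aiolos, had 5 domains with 353 and 444 CPM in Ctrl and 512 and 641 CPM in KO, 2 of them at unadjusted p below 0.05. The sums were 529 and 585 CPM in Ctrl and 663 and 796 CPM in KO for Ikzf1 (4 domains), and 278 and 295 CPM in Ctrl and 320 and 378 CPM in KO for the orphan receptor gene Rora (4 domains).
Gata3, a factor that marks a subset of intestinal Treg cells, had 2 domains, 188 and 192 kb from its TSS, with summed levels of 69.2 and 76.8 CPM in Ctrl and 80.1 and 101 CPM in KO. Its KO sums were above its Ctrl sums, while neither domain had an unadjusted p below 0.05 in edgeR. Foxp3 had none, as its peaks did not meet the rule.

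Costimulatory and inhibitory receptors held 39 domains at 15 of 21 genes, 31 (79.5%) of them above 0, 2 (5.13%) higher and 0 lower at unadjusted p below 0.05, with a median of 0.21 (0.03). Ctla4, the inhibitory receptor through which Treg cells act on antigen-presenting cells, had 6 domains in a row from 39.0 kb upstream to 5.65 kb downstream of the nearest TSS of its protein-coding transcripts. In all 6 each KO library exceeded each Ctrl library, which held for 32.6% of all broad distal domains and 16.9% of all tested peaks. Of the 6, 5 stood in 1 group with no more than 10 kb between neighbours. The sum of the 6 domains was 343 and 371 CPM in Ctrl and 478 and 524 CPM in KO. The strongest, chr1:60914816-60921168, measured 81.0 and 77.1 CPM in Ctrl and 121 and 141 CPM in KO (log2 fold change 0.73, SE 0.28, adjusted p = 0.998 in edgeR).
The other genes with the most domains in this list were less even. Nrp1, a surface marker of thymic Treg cells, had 4 domains with 255 and 262 CPM in Ctrl and 272 and 306 CPM in KO. Cd5, an inhibitor of T cell receptor signals, had 4 with 190 and 246 CPM in Ctrl and 226 and 307 CPM in KO. Cd44, the activation marker, had 4 with 232 and 140 CPM in Ctrl and 230 and 140 CPM in KO, a gap between the replicate numbers that was the same in both genotypes. Tnfrsf1b, which encodes TNFR2, had 3 with 638 and 531 CPM in Ctrl and 742 and 747 CPM in KO, and the adhesion gene Cd2 had 3 with 246 and 202 CPM in Ctrl and 237 and 259 CPM in KO. Only for Nrp1 and Tnfrsf1b among these 5 genes did the sums not overlap between genotypes.

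Genes of T cell receptor signalling held 58 domains at 15 of 29 genes, 53 (91.4%) of them above 0, 5 (8.62%) higher and 0 lower at unadjusted p below 0.05, with a median of 0.26 (0.09). Nfatc1, a calcium-dependent transcription factor, had 10 domains with 667 and 787 CPM in Ctrl and 819 and 929 CPM in KO. The kinase gene Fyn had 8 with 403 and 477 CPM in Ctrl and 497 and 620 CPM in KO. For Ptprc, which encodes CD45, 6 domains summed to 427 and 413 CPM in Ctrl and 491 and 483 CPM in KO. In these genes the sums of both KO libraries lay above those of both Ctrl libraries.
Cd247, the zeta chain of the receptor complex, had 5 domains with 459 and 419 CPM in Ctrl and 491 and 491 CPM in KO. Prkcq, the kinase PKC-theta, had 5 with 306 and 373 CPM in Ctrl and 352 and 474 CPM in KO. Rasgrp1, an activator of Ras, had 4 and went the other way in part, with 309 and 244 CPM in Ctrl and 284 and 230 CPM in KO. Lcp2, which encodes the adaptor SLP-76, had 2, both at unadjusted p below 0.05, with a sum of 107 and 134 CPM in Ctrl and 138 and 237 CPM in KO.

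**Figure D5:**
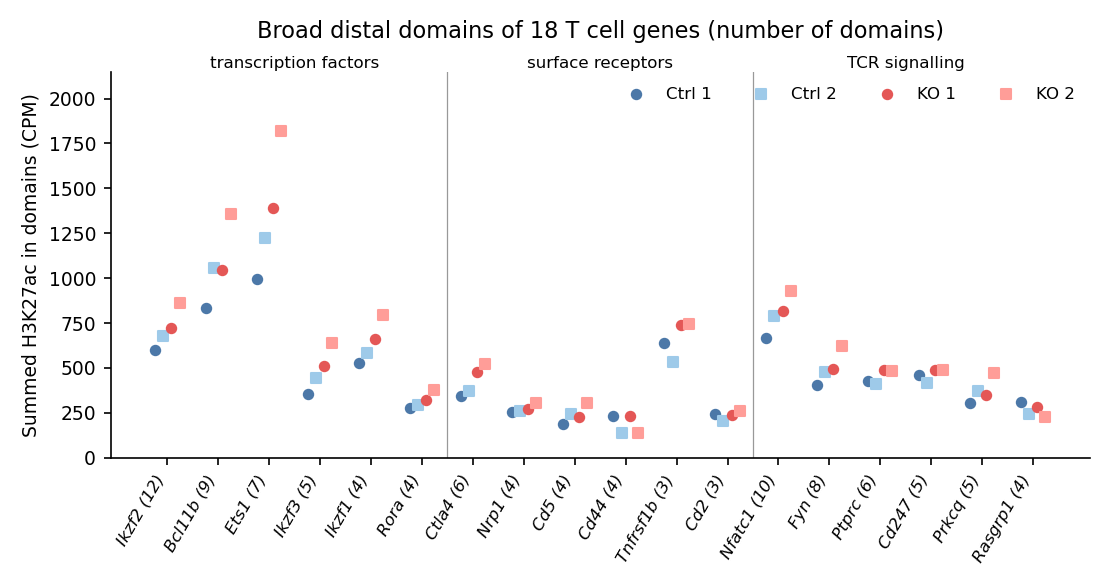
Summed H3K27ac of the broad distal domains of each gene (y axis, CPM) in each library for the genes with the most domains in the lists of transcription factors, surface receptors and T cell receptor signalling, with the number of domains in parentheses. Circles are replicate 1 and squares replicate 2. KO libraries lie above both Ctrl libraries for Ets1 (1389 and 1819 against 994 and 1221 CPM) and Ctla4 (478 and 524 against 343 and 371 CPM) and overlap with them for Cd44 and Rasgrp1.

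Cytokines and their receptors held 25 domains at 10 of 25 genes, 21 (84.0%) above 0, 1 (4%) higher and 0 lower at unadjusted p below 0.05, with a median of 0.26 (0.09). The shared receptor chain gene Il6st had 6 domains with 340 and 356 CPM in Ctrl and 379 and 398 CPM in KO. Il21r had 4 with 201 and 279 CPM in Ctrl and 247 and 389 CPM in KO, and Tgfbr2, which encodes a TGF-beta receptor, had 4 with 177 and 131 CPM in Ctrl and 169 and 131 CPM in KO. Il6ra, Il2rb, Il2ra and Il10 had 2 each. For Il2ra, the IL-2 receptor alpha chain of Treg cells, the sum was 128 and 113 CPM in Ctrl and 157 and 148 CPM in KO, and for Il10, an inhibitory cytokine, it was 152 and 144 CPM in Ctrl and 161 and 172 CPM in KO.
Chemokine and trafficking receptors held 14 domains at 8 of 23 genes, 9 (64.3%) above 0 and 2 (14.3%) higher at unadjusted p below 0.05, both of them the Xcr1-Ccr1 domains assigned to Ccr1, with a median of 0.16 (0.04). S1pr1, the receptor for egress from tissue, had 3 domains with 216 and 182 CPM in Ctrl and 195 and 196 CPM in KO. Cxcr4, Itgav and Itgb1 had 2 each. Itgav, an integrin chain, measured 172 and 112 CPM in Ctrl and 156 and 100 CPM in KO. Feedback regulators of signalling held 22 domains at 13 of 23 genes, 20 (90.9%) above 0 and 1 (4.55%) higher at unadjusted p below 0.05, with a median of 0.22 (0.09). The most were at Zfp36l2 (4), which encodes an RNA-binding protein that destabilises mRNA, with 488 and 474 CPM in Ctrl and 523 and 634 CPM in KO. Rgs1 and Dusp4 had 3 each and Pim1 and Dusp10 had 2 each. The domain at a low unadjusted p was in Traf1, an adaptor of TNF receptors, with 28.95 and 35.7 CPM in Ctrl and 44.3 and 61.8 CPM in KO (log2 fold change 0.71, SE 0.32). Of the 6 lists together, 206 of 233 domains (88.4%) were above 0, 19 (8.15%) were higher and 0 lower at unadjusted p below 0.05, 1 passed the adjustment, and the median was 0.27 (0.09).
The 7 markers of Treg cells held 21 domains at 4 genes, 20 (95.2%) of them above 0, with a median of 0.40 (0.19). Of these domains 12 were at Ikzf2 and 6 at Ctla4, which the lists above had already counted. Genes that mark other cell types held no broad distal domain for B, myeloid, epithelial or CD8 T and NK cells, and Pecam1 alone of the stromal and endothelial markers did, with 3.

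Some domains lay close to each other along the genome. Joined where no more than 10 kb apart, the 2183 domains formed 1638 groups, of which 1284 held a single domain and 354 held 2 or more. The latter took in 41.2% of the domains, and this grouping was not compared with that of other peaks. Bcl11b had the largest group, 9 domains over 81.5 kb (chr12:107918059-107999532), followed by Nfatc1 with 7 over 44.6 kb and by Ikzf3 with its neighbour Grb7, Ski and Ptprc with 6 each. The Bcl11b group held 835 to 1359 CPM per library and all 9 log2 fold changes were above 0, from 0.08 to 0.52. In the group of Ikzf3 and Grb7, 6 of 6 were above 0 and 2 had an unadjusted p under 0.05, with 407 and 501 CPM in Ctrl and 580 and 735 CPM in KO. Ski, a repressor of TGF-beta signals, had overlapping libraries, with 457 and 576 CPM in Ctrl and 450 and 726 CPM in KO.

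A TSS of a gene that is not protein-coding lay inside 214 domains (9.80%), against 1.26% of the much shorter narrow distal peaks. The nearest was of a lincRNA in 66, an antisense transcript in 34 and a miRNA in 15. The 5 with the highest signal were the Tcra and Trb domains, Ccdc88c (antisense Gm36756), Ets1 (antisense Gm27240) and Sema4d (miRNA entry Gm23566). Domains with such a TSS had a median of 15.7 CPM per kb and a median log2 fold change of 0.25, and those without 13.9 CPM per kb and 0.21. A domain of 8.67 kb at chr12:113418502-113427167 covered Ighm, the immunoglobulin mu constant gene, at a mean of 246 CPM with a log2 fold change of 0.12, beside the low B cell marker sums given above.

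Hairpins of 11 miRNAs out of 1005 in RefSeq (GRCm38.p6) lay wholly inside a broad distal domain. The strongest of these domains was that of Mir21a, a miRNA that is abundant in activated lymphocytes, which lay at chr11:86572306-86589353 over the end of Vmp1 and measured 246 and 322 CPM in Ctrl and 329 and 426 CPM in KO (log2 fold change 0.41). The mature strands are shown because this was the one well-known lymphocyte miRNA among them. They lie on the minus strand at chr11:86584120-86584141 (5p) and chr11:86584082-86584103 (3p), and capitals mark the seed, bases 2 to 8:
mmu-miR-21a-5p: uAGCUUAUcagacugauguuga
mmu-miR-21a-3p: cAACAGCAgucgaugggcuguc
The domain of Mir7001 in Cd82, a tetraspanin gene, was nearly as strong with 282 and 260 CPM in Ctrl and 375 and 404 CPM in KO (log2 fold change 0.52). In both domains the KO libraries lay above the Ctrl libraries. The remaining 9 domains with a hairpin had log2 fold changes from 0.05 to 0.53.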

How the data were processed

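H3K27ac was profiled by CUT&Tag in 2 Ctrl and 2 KO libraries. An IgG library of the series was not analysed here. Per the study's methods the authors aligned reads to mm10 with Bowtie2, kept uniquely mapped reads, removed duplicates, called peaks with MACS2 against IgG, merged them with bedtools and deposited the raw counts of reads in each merged peak. Peaks were therefore called on the libraries that were compared. Tool versions are not given in the sources used here.

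Width and TSS distance, both fixed from the peaks themselves, chose the broad distal domains, and the members and lists were chosen with earlier results of these data known. Peaks were placed on GENCODE M21 (GRCm38), with overlapping peaks given to the overlapped gene and others to the nearest protein-coding TSS. A peak was tested if 2 of the 4 libraries or more had 10 counts or more in it, and the whole table was fitted with the quasi-likelihood test of edgeR 4.0.16 (R 4.3.3, TMM, 2 residual degrees of freedom, two-sided, Benjamini-Hochberg over 74550 peaks). Each replicate is a separate sorted pool. Standard errors (SE) follow from the fold change and the F statistic. Named domains were the 8 widest, the 8 densest in CPM per kb, the 4 higher and 4 lower domains with the smallest p among those without overlap, the 5 strongest over a non-coding or receptor-segment TSS, up to 6 genes per list and the 5 largest groups of domains. Others were named after their values were seen. A few domains and genes that this rule selects are not reported here. Motifs were searched on both strands of the RefSeq GRCm38.p6 sequence. The fitting code was tested on simulated counts. Alternatives were DESeq2 1.42.0, other scalings, filters and membership rules, loess offsets, a robust fit, halved counts, a replicate block and leaving out each library. Depth limits what could be detected at weak domains.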

Additional observations from a re-analysis of the deposited data

How the results depend on the processing

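The share difference between genotypes kept its direction in all 8 alternatives tried for it. Other summary values moved as follows, and the cause was not tested except where fewer domains or libraries entered by construction. The counts of domains are given without the share of all tested peaks under the same setting, so they do not show how the domains differed from other peaks. DESeq2 called 0 domains, with 55 higher and 9 lower at unadjusted p below 0.05. A loess offset on abundance gave a median of 0.036, 19 higher and 33 lower, and called 1 domain lower (Hjurp) beside 1 higher, and one on GC content called 2 higher with 156 at the unadjusted level. With any count admitted, 0 were called and 56 were higher. With at least 50 counts in 2 libraries (2181 domains tested) 0 were called, 24 were higher, the median was 0.097, and KO lay wholly above Ctrl at 436 and below at 192 domains. Total counts as library size gave 54 higher and 26 lower, with 152 wholly below, and moved the median of all peaks to −0.091. Domains over 10 kb from a TSS (1665) had 63 higher and 9 lower, and those of at least 5 kb (640) had 46 higher and 1 lower, with 255 wholly above and 8 wholly below. Leaving out 1 library at a time left 0 called, 16 to 157 higher, 9 to 20 lower and a median of 0.091 to 0.277. TSSs of all gene types, halved counts, a robust fit, DESeq2 size factors and the comprehensive annotation, the last added after seeing the data, moved none of these.

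The replicate numbers were set as a block, although the labels do not say that equal numbers share a litter or day. With the replicate block edgeR called 61 domains higher and 5 lower, with 605 and 41 at unadjusted p below 0.05, among 211 called of all peaks. The block called 12 named domains that were not called without it, among them Tcra (adjusted p = 7.68e-07), Ets1 (1.48e-06), the neighbour of the called domain (1.57e-17), Inpp5d (0.000883), those of Hjurp (1.58e-07 and 4.22e-06), Ppp2r2d (0.0262), Chaf1a (0.0339), Ccdc88c (0.0259), Sema4d (0.0145) and Ikzf1 (0.0213). Deviations of Ctrl 1 and KO 1 from their group means correlated at 0.257 across peaks, and with 2 pairs the pairing is not established.

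Of 322 values for 23 named domains, 18 changed sign, all of them in domains that had not been called. Under the loess offset on abundance the log2 fold change was −0.054 in Ccdc88c, −0.121 in B3gnt2, −0.049 in Eps15l1, −0.043 in Gvin1 and −0.227 at Trb. Pde4d was at 0.079 under the GC offset and 0.031 with any count admitted. Leaving out libraries gave −0.025 to 0.737 for Pecam1, −0.299 to 0.630 for Eps15l1, −0.029 to 0.592 for Panx1, −0.020 to 0.421 for Gvin1, −0.015 to 0.827 for Fgd2, −0.087 to 0.054 for Pde4d and −0.081 to 0.295 for Trb. Of 18 named domains above 0, 14 had less than 1/1.5 of their value under the loess offset on abundance. The neighbour of the called domain was called under the GC offset (adjusted p = 0.00668). The called domain was above 0 in all alternatives and lost its call in 7 of them.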

Other observations

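Broad distal domains were set beside gene lists that the study published, from which gene names alone were taken. The mRNA of the study was measured in adult mice, whereas H3K27ac was measured in 2-week-old mice. Genes whose mRNA was higher in KO large intestinal Treg cells held 224 domains at 123 genes. Of these domains 192 (85.7%) had a log2 fold change above 0, with a median of 0.24, and 14 were higher and 0 lower at unadjusted p below 0.05. Genes whose mRNA was lower in KO held 129 domains at 63 genes, with 93 (72.1%) above 0, a median of 0.15, and 0 higher and 2 lower. Over all 2183 domains 81.1% were above 0 with a median of 0.22, and 4.72% were higher and 0.733% lower at unadjusted p below 0.05 in edgeR. Over all tested peaks the last 2 shares were 1.45% and 2.79%. After the loess offset on abundance, medians were 0.06 and −0.03 for the lists and 0.04 for all domains. The difference between the lists was not tested.

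Signature genes of colonic Treg cells held 159 domains at 20.4% of the genes found in the annotation, and those of splenic Treg cells were at 14.2% of theirs, against 5.77% of all protein-coding genes. Gene length was not taken into account. Colonic signature genes held 7.28% of the broad distal domains and 5.48% of the narrow distal peaks. For splenic signature genes these shares were 4.63% and 3.35%. The domains of the colonic signature had a median log2 fold change of 0.18 and those of the splenic signature 0.21.

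Beyond the named genes, the 103 domains higher at unadjusted p below 0.05 fell at 82 genes, 5 of which held 3 or more. Chosen after their values were seen, these were Ets1, Fnbp1, Prkch, Myh9 and Akna. The 16 lower domains fell at 15 genes, and 0 genes had domains in both sets. Myh9, the heavy chain of nonmuscle myosin, had a group of 4 domains over 45.0 kb with 440 and 688 CPM in Ctrl and 614 and 1070 CPM in KO, so its KO 1 library lay below Ctrl 2 although 3 of the 4 domains were among the higher ones.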
